A study of Mus musculus with 10 samples.

Results

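Among 2132 differentially methylated regions (DMRs) called between groups of lymph node stromal cells, 10 had a Hox gene or a Hox antisense transcript as their nearest gene, and these 10 are described here. A DMR is a run of neighbouring CpGs, cytosines followed by guanine, whose methylation differs between a pair of groups. Members were taken by name alone, as every DMR whose nearest gene in the authors' tables was Hox followed by a, b, c or d and a number, or an antisense name starting with Hox. They named 7 of the 39 mouse Hox genes, Hoxa7, Hoxa10, Hoxd1, Hoxd8, Hoxd9, Hoxd10 and Hoxd11, and the antisense transcript Hoxaas2. Because the Hoxd9 and Hoxaas2 DMRs were each called in both housings, overlapping DMRs were merged and the 10 members formed 8 regions of 1602, with 85 CpGs of 24182. All 10 separated mesenteric lymph nodes (mLN) from peripheral lymph nodes (pLN), and 0 of the 17 DMRs between housings in mLN and 0 of the 16 in pLN were nearest to a Hox gene. DMRs between the nodes, called in either housing, made up 806 and 1293 of the 2132. Both Hox counts are thus close to the share over all DMRs.

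The libraries came from whole-genome bisulfite sequencing of BALB/c mouse cells without a transgene in their labels, 3 from mLN and 3 from pLN of specific pathogen-free (SPF) mice, and 2 from mLN and 2 from pLN of germ-free (GF) mice, which lack a microbiota. The mLN drain the gut, and the pLN, axillary and inguinal or popliteal, drain the skin. The methods of the study name only inguinal and axillary nodes as pLN. The source label of the pLN libraries reads skin-draining mesenteric lymph node, and groups were taken from the library titles. All mice were adult, and the paper gives a younger, overlapping age range for GF than for SPF mice. Its methods name female mice unless stated otherwise, and the SPF BALB/c line as CD90.1. All 4 groups were sorted in the same way as CD45-CD31-Ter119-Pdpn+ non-endothelial stromal cells. The sort takes a mixture of stromal subsets, so a change in the share of a subset and a change of methylation within cells cannot be told apart. The GF colony was founded by caesarean section at a different institution from the SPF colony and kept in isolators. Colony, age range and housing therefore cannot be told apart. The authors left out 1 mLN GF and 1 pLN GF replicate as outliers, so the GF spread is that of the libraries they kept. Whether libraries were separate animals or pools is not given in the labels, and p-values then measure the spread between these libraries. The sorted cell type was not checked by marker genes, since the files hold methylation and no expression.

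Hox genes encode homeodomain transcription factors that give cells a position along the body axes. They lie in clusters, HoxA to HoxD, in which gene order follows the order of expression along the axis, from the group 1 genes of the anterior end to the group 13 genes of the posterior end. Fibroblasts and other mesenchymal cells of the adult keep a Hox expression pattern that depends on the place they came from. DNA methylation of CpGs is a heritable mark, and within Hox clusters it occurs both at silent genes and across gene bodies, so a level of methylation does not by itself give the activity of a gene.

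The sequences below are parts of 4 of the Hox regions, from the forward strand of the GRCm38 reference of C57BL/6J mice, with the CpGs of the CpG table in capitals. They show how the measured sites are spread, as a dense block in Hoxd9 and as single sites in Hoxaas2. The Hoxd9 window stops short of the CpG with the widest SPF difference, and the Hoxa7 window leaves out the first 2 CpGs of its DMR. The Hoxd9 window is chr2:74696676-74696975, within both Hoxd9 DMRs, and the Hoxd8 window is chr2:74703742-74704041. In HoxA, whose genes read from the reverse strand, the Hoxa7 window is chr6:52216009-52216205, which runs from the edge of the last coding exon into the intron. In it 22 bases are annotated as untranslated. The Hoxaas2 window is chr6:52166955-52167254.
Hoxd9: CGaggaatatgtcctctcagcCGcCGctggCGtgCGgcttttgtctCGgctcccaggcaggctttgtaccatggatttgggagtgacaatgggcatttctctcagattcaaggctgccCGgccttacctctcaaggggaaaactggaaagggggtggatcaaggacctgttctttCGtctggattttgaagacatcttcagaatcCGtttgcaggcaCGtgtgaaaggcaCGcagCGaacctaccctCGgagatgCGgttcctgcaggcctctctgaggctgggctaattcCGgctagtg
Hoxd8: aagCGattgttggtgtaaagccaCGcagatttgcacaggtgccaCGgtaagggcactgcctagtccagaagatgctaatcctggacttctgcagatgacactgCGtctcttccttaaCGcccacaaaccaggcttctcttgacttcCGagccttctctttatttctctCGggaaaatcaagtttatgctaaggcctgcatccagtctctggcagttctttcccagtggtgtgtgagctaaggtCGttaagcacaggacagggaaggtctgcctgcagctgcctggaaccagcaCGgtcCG
Hoxa7: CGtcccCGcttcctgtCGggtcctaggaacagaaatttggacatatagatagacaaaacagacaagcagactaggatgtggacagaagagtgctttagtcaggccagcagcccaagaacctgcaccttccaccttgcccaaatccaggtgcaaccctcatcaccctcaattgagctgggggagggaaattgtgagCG
Hoxaas2: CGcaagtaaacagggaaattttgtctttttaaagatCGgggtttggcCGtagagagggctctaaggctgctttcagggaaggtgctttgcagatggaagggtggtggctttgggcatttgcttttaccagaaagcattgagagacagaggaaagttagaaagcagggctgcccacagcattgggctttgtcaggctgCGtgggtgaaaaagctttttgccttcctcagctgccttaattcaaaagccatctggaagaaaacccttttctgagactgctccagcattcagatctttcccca

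The Hox DMRs fell into HoxD on chromosome 2 and HoxA on chromosome 6. HoxD, with 9 Hox genes, held 6 of them and 4 DMRs whose nearest gene had another name, Gm14396, Gm14426 and Haglr. HoxA, with 11 Hox genes, held 4 of them and 1 DMR nearest to Mir196b, a microRNA gene of that cluster. In HoxB on chromosome 11 and HoxC on chromosome 15, 0 DMRs were called, and levels there were not analysed here because the CpG table holds CpGs of DMRs only. Across HoxD all regions were less methylated in mLN than in pLN, from Hoxd11, 12.8 kb from the start of Hoxd13, to Hoxd1, 96.0 kb from it. HoxA was split, with lower methylation in mLN at Hoxa10, 23.6 kb from the start of Hoxa13, and higher methylation in mLN at Hoxa7, 44.8 kb, and Hoxaas2, 93.7 kb from it. Of the Hox DMRs, 1 of 2 in the SPF table and 2 of 8 in the GF table were more methylated in mLN, beside 58.7% and 46.7% of all DMRs in those tables.

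**Figure D1:**
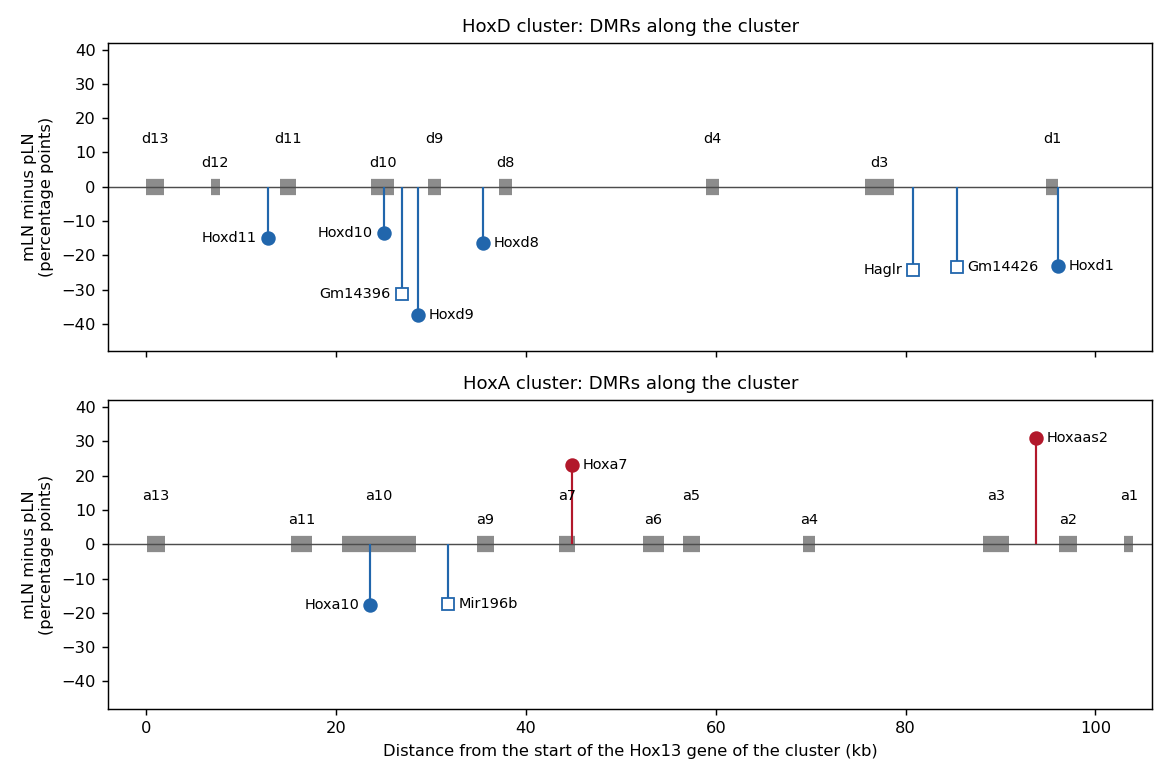
Difference in mean methylation, mLN minus pLN over the 10 libraries in percentage points, against the distance in kb from the start of the group 13 gene, for HoxD (top) and HoxA (bottom); filled circles are regions nearest to a Hox gene, open squares regions with another nearest gene, red is higher and blue lower in mLN, and grey bars mark the coding extent of the Hox genes. All HoxD regions lie below 0, down to −37.5 points at Hoxd9, and in HoxA Hoxa7 and Hoxaas2 lie above 0 at 23.0 and 30.9 points.

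Hoxd9, a posterior gene used in limb and trunk patterning, had the Hox region with the most CpGs and the largest location difference over the 10 libraries. The region, chr2:74696571-74697177, held 22 CpGs, lay 853 bp from the Hoxd9 start at its middle and overlapped non-coding exons of Gm14396 and, on the other strand, Gm28793. Its mean methylation in the mLN SPF libraries was 34.5%, 16.2% and 45.1%, and in the mLN GF libraries 22.8% and 22.9%. In the pLN SPF libraries it was 57.8%, 60.4% and 73.5%, and in the pLN GF libraries 66.8% and 70.3%. All 5 mLN libraries lay below all 5 pLN libraries, and the widest spread was among the mLN SPF libraries. The SPF means were 31.9% ± 14.6 for mLN and 63.9% ± 8.43 for pLN (SD over 3 libraries each), and the GF means 22.8% ± 0.0984 and 68.5% ± 2.48 (SD over 2 libraries each).

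Hoxd1, the most anterior gene of HoxD, carried 1 DMR, called in GF mice at chr2:74763927-74764647 with 15 CpGs, which runs from its intron through the last coding exon into the 3′ untranslated region. The region was methylated at 49.0%, 42% and 58.4% in the mLN SPF libraries and at 49.6% and 57.6% in the mLN GF libraries. The pLN SPF libraries had 68.7%, 70.4% and 73.2%, and the pLN GF libraries 82.9% and 77.3%. Here too the mLN and pLN libraries did not overlap, with the highest mLN library at 58.4% and the lowest pLN library at 68.7%. The SPF means were 49.8% ± 8.24 for mLN and 70.7% ± 2.30 for pLN, and the GF means 53.6% ± 5.68 and 80.1% ± 3.96, with SDs over the same numbers of libraries.

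The Hoxd10 region, chr2:74693166-74693421 in an intron of this posterior gene, had the smallest location difference of the HoxD members over the 10 libraries, −13.6 points. Its 6 CpGs averaged 27.4%, 30.1% and 22.4% in mLN SPF and 23.5% and 24.7% in mLN GF. They averaged 33.3%, 39.9% and 34.6% in pLN SPF and 49.1% and 39.0% in pLN GF. The libraries did not overlap, but lay close, with 30.1% in the highest mLN and 33.3% in the lowest pLN library.

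Hoxd8 and Hoxd11 overlapped between mLN and pLN when all 10 libraries were taken. The Hoxd8 region, chr2:74703591-74704040, which overlaps a non-coding exon of the antisense transcript Hoxd3os1, ranged from 26.7% to 55.7% in the mLN libraries and from 45.1% to 68.1% in the pLN libraries, and its 45.1% was a pLN GF library. The Hoxd11 region, chr2:74680973-74681217 in an intron, ranged from 10.9% to 37.0% in mLN and from 26.4% to 49.3% in pLN. Its GF libraries were apart, at 10.9% and 13.6% in mLN against 47.8% and 41.5% in pLN, while its SPF libraries were mixed, at 34.8%, 37.0% and 22.6% in mLN against 28.7%, 26.4% and 49.3% in pLN.

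In HoxA the largest difference over the 10 libraries was at Hoxaas2, a transcript read on the strand opposite to the HoxA genes, between Hoxa2 and Hoxa3. The region, chr6:52166955-52167320, held 5 CpGs in a non-coding exon of Hoxaas2 and an intron of Gm28308. Its methylation was 46.9%, 78.3% and 47.3% in mLN SPF and 41.4% and 57.2% in mLN GF. In pLN it was 20%, 26.1% and 27.5% in the SPF and 12.9% and 30.4% in the GF libraries. Every mLN library was above every pLN library, the reverse of the order in HoxD, and 1 mLN SPF library stood well above the other 2. The SPF means were 57.5% ± 18.0 for mLN and 24.5% ± 3.96 for pLN (SD, n = 3), and the GF means 49.3% ± 11.2 and 21.6% ± 12.4 (SD, n = 2).

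Hoxa7, a gene of the middle of the cluster that patterns the trunk skeleton, carried 1 DMR, called in GF mice at chr6:52215994-52216204. Its 6 CpGs averaged 45.8%, 23.9% and 52.8% in mLN SPF and 33.1% and 73.7% in mLN GF. The pLN SPF libraries had 29.9%, 25.7% and 8.33%, and the pLN GF libraries 22.4% and 28.1%. One mLN SPF library, at 23.9%, lay inside the pLN range, so the groups overlapped, and the GF difference rested on 1 library. It was 28.2 points with both mLN GF libraries, 48.5 points without the lower and 7.86 points without the higher of them. The GF means were 53.4% ± 28.7 for mLN, the widest SD of the 8 regions, and 25.2% ± 4.04 for pLN (SD, n = 2). In SPF mice they were 40.8% ± 15.1 for mLN and 21.3% ± 11.4 for pLN (SD, n = 3).

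The Hoxa10 region, chr6:52236648-52237964 in an intron of this posterior gene, was the HoxA member with the most CpGs, 13, and the smallest difference, −17.6 points over the 10 libraries. The mLN libraries had 33.2%, 46% and 50.6% in SPF and 33.6% and 41.1% in GF mice. The pLN libraries had 59.3%, 56.1% and 49.9% in SPF and 61.8% and 65.6% in GF mice. The groups overlapped by less than 1 point, at 50.6% in mLN SPF and 49.9% in pLN SPF. In all, mLN and pLN did not overlap over the 10 libraries in 4 of the 8 Hox regions, beside 78.6% of the 1602 regions, a count that includes the libraries the DMRs were called on.

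**Figure D2:**
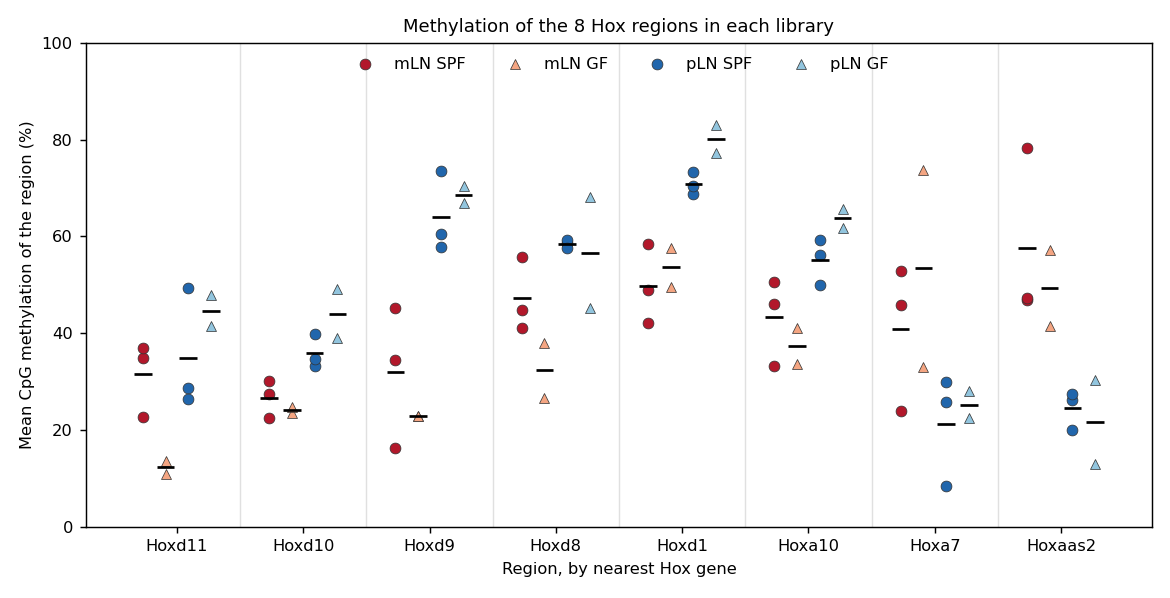
Mean CpG methylation in percent of the 8 Hox regions, with 1 point for each library (circles SPF, triangles GF, red mLN, blue pLN) and a bar at the mean of each group of 3 SPF or 2 GF libraries. The mLN points lie wholly below the pLN points in Hoxd10, Hoxd9 and Hoxd1 and wholly above them in Hoxaas2, and the 2 overlap in Hoxd11, Hoxd8, Hoxa10 and Hoxa7.

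To ask whether a Hox DMR found in one housing also separated the lymph nodes in the other, each DMR was measured in the libraries that played no part in calling it. Methylation of each DMR was averaged per library, and mLN minus pLN was tested by limma over all DMRs of the same table, with Benjamini-Hochberg adjustment and a threshold of 0.05. Both Hox DMRs called in SPF mice passed in the GF libraries in the direction of the table, where 89% of all 806 did. Hoxd9 was lower in mLN, at −45.7 ± 4.07 points (SE; limma adjusted p = 0.000511), and Hoxaas2 was higher by 27.7 ± 7.92 points (limma adjusted p = 0.016). The Hoxaas2 call was lost without mLN GF replicate 2 (19.8 points, limma adjusted p = 0.099) and without pLN GF replicate 1 (18.9 points, limma adjusted p = 0.082). The libraries of mLN and pLN did not overlap in either DMR, as in 93.7% of the table.

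Of the 8 Hox DMRs called in GF mice, 4 passed in the SPF libraries in the direction of the table, beside 82.4% of all 1293. They were Hoxd9 (−33.8 ± 6.29 points, limma adjusted p = 0.000663), Hoxaas2 (33.0 ± 7.83 points, 0.00288), Hoxd1 (−20.9 ± 5.13 points, 0.00347) and Hoxa7 (19.5 ± 7.98 points, 0.0417). The Hoxa7 call was lost without mLN SPF replicate 1, mLN SPF replicate 3 or pLN SPF replicate 3, at limma adjusted p = 0.129, 0.159 and 0.167. Differences for those that did not pass were −11.3 ± 4.94 points at Hoxd8 (limma adjusted p = 0.0549), −11.8 ± 5.52 at Hoxa10 (0.0678), −9.26 ± 4.52 at Hoxd10 (0.0781) and −3.32 ± 6.74 at Hoxd11 (0.652). Without mLN SPF replicate 3, Hoxd8 was at −15.5 points (limma adjusted p = 0.0115) and Hoxa10 at −15.5 points (0.0312), both past the threshold. Hoxa10 was at −6.79 points without mLN SPF replicate 1 (limma adjusted p = 0.246), and Hoxd8 at −8.22 points without mLN SPF replicate 2 (0.174). In the Hoxd11 DMR the SPF difference was 1.1 points without mLN SPF replicate 3 and 3.93 points without pLN SPF replicate 3, above 0 in both cases. SPF libraries did not overlap in 5 of the 8, beside 81.4% of the table.

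All 8 GF-called Hox DMRs had the sign of the table in the SPF libraries, as did 1263 of the 1293, and their median difference in that direction was 15.7 points beside 26.4 points over the table. The difference between the location effects of SPF and GF mice was not tested, because these DMRs were chosen for their difference in GF mice. In the libraries used for the calls, a description, unsmoothed differences were −46.5 points at Hoxd9, −32.4 at Hoxd11, −26.5 at Hoxd1, −26.3 at Hoxa10, −24.2 at Hoxd8, −20 at Hoxd10, 28.2 at Hoxa7 and 27.7 at Hoxaas2. That of Hoxd8 was −12.7 points without pLN GF replicate 1 and −35.8 without pLN GF replicate 2. Against the authors' minimum of 25 points on smoothed means, the members just inside were Hoxd1 at −25.9, Hoxaas2 at 27.1 and Hoxd10 at −27.2 points of smoothed difference in GF mice, and 1 of the 10, Hoxd9 in GF mice, exceeded 35 points.

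**Figure D3:**
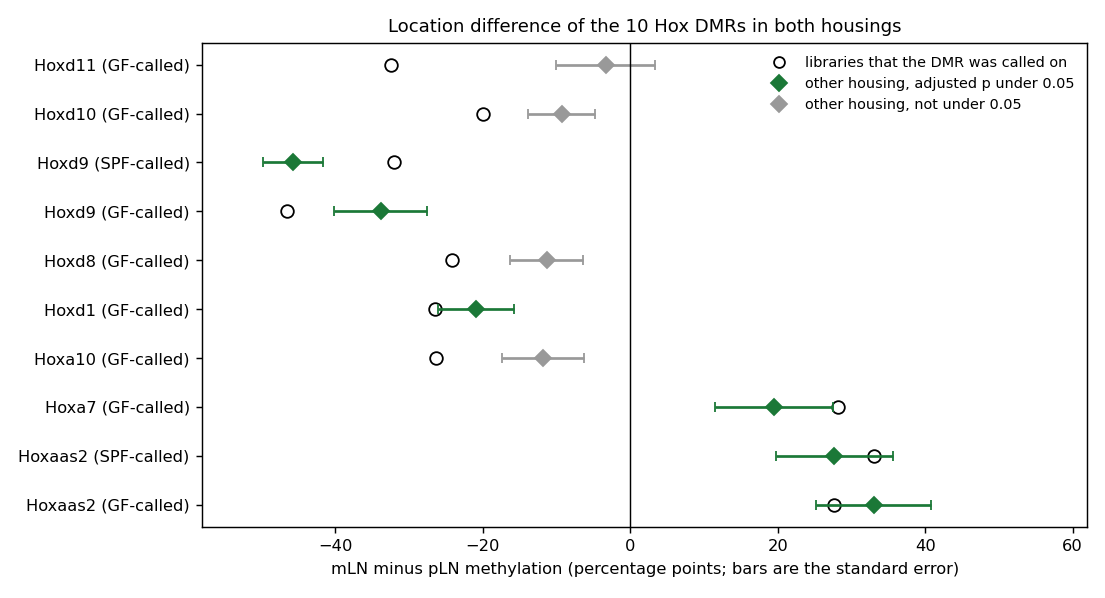
Location difference, mLN minus pLN in percentage points, of the 10 Hox DMRs, as open circles in the libraries a DMR was called on and as diamonds with standard error bars in the libraries of the other housing (green, limma adjusted p under 0.05; grey, not). In the other housing Hoxd9 lay at −45.7 and −33.8 points and Hoxaas2 at 27.7 and 33.0, while Hoxd11 lay at −3.32 points with an error bar that reaches across 0.

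CpG by CpG, the Hoxd9 difference ran through the whole region, while that of Hoxd8 in SPF mice lay at some of its CpGs. Of the 27 CpGs in the SPF-called Hox DMRs, 22 had GF libraries that did not overlap in the direction of the table, beside 64.7% of 15217. Of the 79 in the GF-called Hox DMRs, 16 had SPF libraries that did not overlap, beside 48.6% of 15115. Neighbouring CpGs share reads and are not independent, and the number of reads behind a single CpG value is not known.

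In Hoxd9, 18 of 22 CpGs were apart in the GF libraries, and at 5 of 22 all 10 libraries were apart, those of the calls included. Over the 8 Hox regions this held at 7 of 85 CpGs, beside 33.2% of all 23850 CpGs with a value in every library. Over the dense block of 6 CpGs at the start of the printed window, 105 to 151 bp from the first CpG of the region, the GF difference was between −54.4 and −80.4 points, with −75.0 at 50 bp and −66.2 at 223 bp on either side of it. In the block the mLN GF means were between 5.56% and 18.1%, and at 151 bp the means were 7.14% in mLN GF and 87.5% in pLN GF. In SPF mice the same 6 CpGs differed by −17.7 to −33.2 points, with mLN means from 33.3% to 36.1%. The widest SPF difference was further along, −66.7 points at 410 bp, where the mLN SPF mean was 16.6% and the GF difference −15.5 points. Both housings had lower mLN means at all 22 CpGs, with different CpGs at the extremes. The block lies in both Hoxd9 DMRs, so the libraries of each housing served in a call that holds it. These values are a description, and a difference between housings was not tested.

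The Hoxd8 region fell into parts. At the first CpG, the SPF means were 73.6% in mLN and 69.4% in pLN, and the CpG at 124 bp was at 0% in 9 libraries and at 16.7% in the other. The mice were BALB/c and the reference C57BL/6J, and whether BALB/c has a CpG there was not checked, so this value may not be a methylation level, and it is 1 of the 12 in the mean of the region. From 154 to 297 bp the SPF differences lay between −25 and 17.9 points, on either side of 0. At 319 bp the SPF difference was −39.8 points, and this was the 1 CpG of Hoxd8 at which all 10 libraries were apart. At the CpGs 444 and 449 bp along, the last capitals of the printed sequence, the means were 3.70% and 3.70% in mLN SPF against 38.1% and 59.7% in pLN SPF. In GF mice the differences were below 0 from the first CpG on, except at 124 bp, where all libraries were at 0%.

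In Hoxd1 the SPF mean was lower in mLN at 14 of 15 CpGs, and the libraries were apart at 2 of them. Methylation of pLN varied along the region, with 50% in SPF and 60% in GF mice at the first CpG, 65.7% and 58.3% at 377 bp, 93.9% and 100% at 391 bp, and 55% and 70.1% at the last. The 2 CpGs at 579 and 666 bp, in the untranslated part, had mLN means from 79.4% to 95.8% and pLN means from 93.9% to 100%. At the last CpG, 720 bp, the SPF difference turned to 10.5 points. The widest SPF difference was −45.7 points at 42 bp, in the intron, with 13.7% in mLN and 59.4% in pLN.

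The Hoxa7 CpGs had a higher mLN mean at 6 of 6 in SPF mice, by 6.67 to 35.5 points, but at 0 of 6 were the SPF libraries apart. In Hoxaas2 the 5 differences were between 15.8 and 59.9 points in SPF mice and between 19.4 and 38 points in GF mice. All 10 libraries were apart at its CpG 47 bp along, with means of 66.2% and 50.8% in mLN and 6.27% and 31.4% in pLN of SPF and GF mice. In Hoxa10 the SPF mean was lower in mLN at 11 of 13 CpGs, and the GF differences were widest at 451 bp, −69.8 points, and smallest at the end, with 3.54 points at 1256 bp and −3.33 points at 1316 bp. Of 6 CpGs, Hoxd10 was lower in mLN at 6 and Hoxd11 at 3 in SPF mice.

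**Figure D4:**
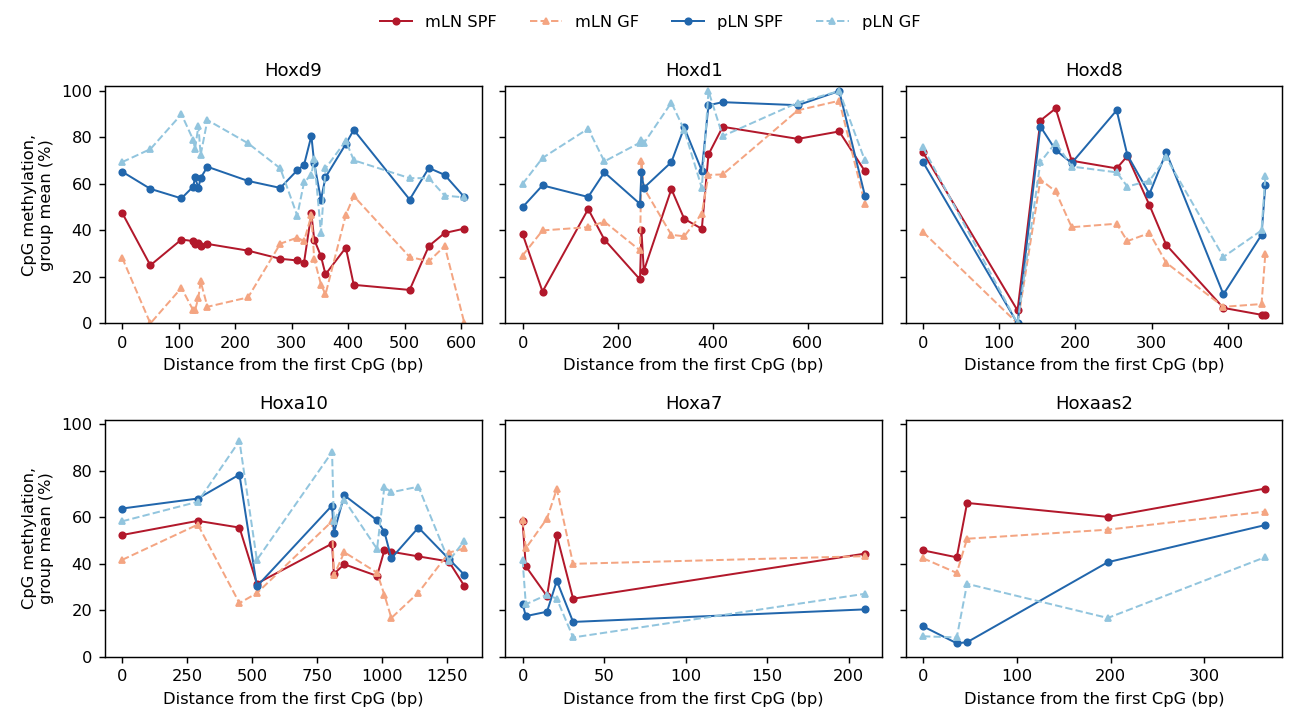
Group means of methylation in percent at each CpG of 6 Hox regions against the distance in bp from the first CpG of the region; solid lines with circles are SPF (3 libraries a group), dashed lines with triangles GF (2 a group), red mLN and blue pLN. In Hoxd9 the mLN lines stay below the pLN lines of the same housing throughout, in Hoxd8 the SPF lines are furthest apart at 319, 444 and 449 bp, and in Hoxa7 and Hoxaas2 the mLN lines lie above.

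Housing did not reach the threshold in any Hox region. The test was SPF minus GF over all 1602 merged regions and all 10 libraries, with location as a covariate in limma. It called 0% of the regions. The 1602 include the regions that hold the authors' 17 and 16 housing DMRs, and those were not called either. The fit gives 1 shift for both nodes, so shifts of opposite sign in mLN and pLN would cancel. At Hoxd11 the mLN means were 31.5% in SPF and 12.2% in GF mice. Its pLN means were 34.8% and 44.6%, and the fitted difference was 4.71 points. Regions called in GF mice only, such as Hoxd11, were chosen for a difference between nodes in GF mice. Housing within each node was not tested here. At an unadjusted p under 0.05 there were 72 of 1602 regions, 0 of them nearest to a Hox gene, and limma, the tool used here, gave a smallest adjusted p of 0.773. Differences in the Hox regions were between −8.26 ± 7.83 points at Hoxa7 and 8.36 ± 5.00 points at Hoxd8 (SE), with limma adjusted p from 0.991 to 0.993. Leaving out 1 library gave −15.1 points (without mLN GF replicate 1) to 0.555 points (without mLN GF replicate 2) at Hoxa7, and 4.68 points (without mLN GF replicate 2) to 14.3 points (without pLN GF replicate 1) at Hoxd8. At Hoxd1 the difference was −6.56 ± 3.67 points and at Hoxd9 2.22 ± 5.47 points. With 2 GF libraries a group, a shift of the size of these standard errors was not detectable.

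The DMRs inside the clusters that carry another gene's name were also less methylated in mLN, and in each the mLN and pLN libraries were apart, as in the 78.6% of all regions given above. The Mir196b DMR, 1004 bp with 39 CpGs in a non-coding exon of Hoxa9, had mLN libraries from 6.65% to 20% and pLN libraries from 25.6% to 35.6%, and 8 of its 39 CpGs were apart in all 10 libraries, beside the 33.2% of all CpGs. It was called in GF mice and passed in the SPF libraries at −11.4 ± 4.42 points (limma adjusted p = 0.0341). In HoxD the Gm14396 region lay in a UTR exon of Hoxd10, with 32.2% to 54.8% in mLN and 66.8% to 77.9% in pLN. Over the 10 libraries the differences of the HoxD neighbours were −31.4 points at Gm14396, −24.2 at Haglr, a long non-coding RNA gene between Hoxd3 and Hoxd1, and −23.4 at Gm14426.

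Some of the genes that work with the Hox proteins or act on them carried location DMRs, and most did not. The share of all genes with a location DMR was not computed, so these counts have no background beside them. The TALE homeodomain proteins (Pbx, Meis and Pknox) bind DNA together with Hox proteins, and 2 of their 9 genes, Meis1 and Meis2, had 16 DMRs, all less methylated in mLN, which is the direction of 333 of 806 SPF-called and 689 of 1293 GF-called DMRs. Some were called in both housings, and the 16 merged into 11 regions. All 10 that were called in SPF mice passed in the GF libraries, and all 6 called in GF mice passed in the SPF libraries, beside the 89% and 82.4% of the tables. The widest in the GF libraries, at Meis1 (chr11:19022505-19022646), was −62.3 ± 5.42 points (limma adjusted p = 0.000507) and −54.2 ± 5.45 points in the SPF libraries (2.22e-05), where another Meis1 DMR (chr11:19010717-19011382) reached −55.6 ± 4.85 points (1.34e-05). At Meis2 (chr2:116059229-116059492) the differences were −38.1 ± 4.61 points in GF (limma adjusted p = 0.000773) and −17.5 ± 4.77 points in SPF mice (0.00615).

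Of 10 upstream regulators of Hox genes, the Cdx factors and the synthesis, breakdown and receptors of retinoic acid, 1 had DMRs. This was Aldh1a2, which makes retinoic acid, with 2 GF-called DMRs less methylated in mLN, at −32.9 ± 5.59 points in the SPF libraries (limma adjusted p = 0.000381) and −3.97 ± 9.55 points (0.703). Of 10 Polycomb and trithorax genes, whose products keep Hox genes silent or active, Kmt2a had 2 overlapping DMRs, more methylated in mLN, at 37.3 ± 4.08 points in the GF (limma adjusted p = 0.000674) and 33.7 ± 4.80 points in the SPF libraries (0.000135). Of 17 neighbours of the clusters, Mir196b and Skap1, which lies beside HoxB, had 1 DMR each, and the Skap1 DMR was at −25.4 ± 5.08 points in the SPF libraries (limma adjusted p = 0.00105). There were 0 housing DMRs at any gene of these lists, among the 17 called in mLN and the 16 called in pLN. With so few among 2132 DMRs, hardly any could be expected at these genes.

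By the authors' distances the Hox DMRs lay between 501 bp and 2076 bp from a transcription start. Their medians were 844 bp in the SPF and 1068 bp in the GF table, beside 15444 bp and 16132 bp over all DMRs. Genes lie close together in these clusters and members were taken by nearest gene, so the selection favoured short distances. Promoter windows were taken as 250 bases before to 50 after the start in RefSeq GRCm38.p6. None of the 24 windows, of 22 Hox genes and transcripts, overlapped a DMR. The share for other promoters was not computed. The authors count Hoxd1 among genes with a DMR near the start, and that DMR lay 947 bp away, outside this window. The Hox regions had a median GC content of 51.7% beside 46.5% over all 1602 regions, and a median CpG observed to expected ratio of 0.346 beside 0.406. Letters of 4 Hox-type motifs were searched in the 500 bp around the middle of each region, on both strands. TGACAG, the core of Meis-type sites, occurred in 1 of 8, Hoxd1, beside 34.8% of all regions. TGATNNAT, of Pbx-Hox type, occurred in 0 of 8 beside 25.6%, TAATTA in 0 beside 14.9%, and TTTACGA in 0 beside 1.31%.

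The regions most like Hoxa7 and Hoxd1 were found by the root mean square difference in percent methylation over the 10 libraries, among regions without a Hox DMR. For Hoxd1 they were nearest to Gm26251 at 5.40 points, Gm8250 at 5.42 and Meis2 (chr2:116057235-116057966) at 5.61. For Hoxa7 they were Gm10258 at 11.6 points, Adcy4 at 11.8 and Krt24 at 11.8. Gm26251 averaged 50.9% in mLN and 75.2% in pLN, beside 51.3% and 74.5% for Hoxd1.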

How the data were processed

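Reads were trimmed by the authors and mapped to GRCm38 with BSMAP, and unique, paired, de-duplicated reads were kept (FastQC 0.11.1, cutadapt 1.4 and BSMAP 2.4.3 per the submitters' processing notes). With bsseq they smoothed methylation along the genome and called DMRs between pairs of groups with at least 25 points of difference. The deposited tables give 806 DMRs of location in SPF mice, 1293 in GF mice, and 17 and 16 of housing in mLN and pLN. Their smoothed group means were printed as the authors' means; their differences and areaStat scores were not used. A further deposited table holds the unsmoothed methylation fraction of each CpG in each library. It gives no read depth, so no counting interval is given.

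Fractions were multiplied by 100 and averaged per DMR, or per region merged at 1 bp of overlap, over CpGs measured in 1 or more libraries of every group (24158 of 24182). In each library 99.62% to 99.87% of the CpGs had a value and the mean over them was 48.25% to 52.24%. All 24182 positions carried C then G on GRCm38. Replicates shared identical values at 11.4% to 14.2% of CpGs and were kept separate. Tests used limma 3.58.1 in R 4.3.3 and were tested on simulated data. Annotation was GENCODE M21.

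Members and gene lists were chosen with earlier results of these data known. Library values are given for Hoxa7, Hoxd1 and, in each cluster, the member region with the most CpGs and those with the largest and smallest difference; Hoxd8, Hoxd11 and the other DMRs of the clusters were added after their values were seen. Alternatives were another scale, another variance model, the median over CpGs, complete CpGs, at least 5 CpGs, at least 35 points, merging at 50% overlap of the shorter DMR, a fit over 10 libraries, the replicate number as a block and each library left out.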

Additional observations from a re-analysis of the deposited data

How the results depend on the processing

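The calls at Hoxd9, Hoxd1 and, in the SPF libraries, Hoxaas2 were kept under every alternative that tested them, and Hoxa7, Hoxa10, Hoxd8 and, in the GF libraries, Hoxaas2 changed side of the threshold under some. At the stricter limit of at least 35 points the number of Hox DMRs was 1 instead of 10, and 1 of 1 GF-called Hox DMR passed in the SPF libraries; no SPF-called Hox DMR was left there to test. Leaving out 1 library gave 1 to 2 passing SPF-called Hox DMRs of 2, 3 to 5 GF-called of 8, and 0 Hox regions that differed by housing. On the logit scale 3 of 8 GF-called Hox DMRs passed, without Hoxa7 (adjusted p = 0.0789), and among DMRs of at least 5 CpGs 5 passed, with Hoxd8 (adjusted p = 0.0412). In the fit over all 10 libraries Hoxa10 passed (adjusted p = 0.0487) and Hoxa7 did not (adjusted p = 0.0878). The SPF difference of Hoxd11 changed sign, from −3.32 to 1.1 points without mLN SPF replicate 3 and 3.93 points without pLN SPF replicate 3, with a lowest value of −7.51 on leaving out a library. The median over CpGs put the SPF difference of Hoxaas2 at 48.6 points, from 33.0. The cause of these shifts was not tested. Same-numbered mLN and pLN libraries deviated from their group means together by correlations of −0.0371 to 0.0322 over 1602 regions, so the numbers were not taken to pair them. With 2 GF libraries a group, the same-numbered GF pairs share 1 value by construction, −0.0315. With the replicate number as a block, 2 of 2 SPF-called and 4 of 8 GF-called Hox DMRs passed, and 0 of 8 Hox regions differed by housing. Under that block 719 of 806 and 1082 of 1293 DMRs passed in all. The limit on depth is that the files used here give no reads per CpG.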
